A study of Arabidopsis thaliana with 6 samples.

Results

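Alpha-expansins (EXPA) and xyloglucan endotransglucosylase/hydrolases (XTH) are the main protein families that loosen and remodel the primary wall of growing *Arabidopsis thaliana* (thale cress) cells. The genes described here are 18 EXPA and 26 XTH loci, *TCH4* (*XTH22*) included, taken by locus identifier and family membership. The list was drawn up with earlier results of these data known, and the 15 family loci outside it are given with the other wall genes. Of these 44 loci, 43 have a row in the count table of 30865 genes. *EXPA2* has none, and in the authors' FPKM table it was listed at 0 in 5 of 6 libraries and at 0.586 in wild-type replicate 2. The RNA-seq libraries came from whole 9-day-old seedlings, 3 of the Col-0 wild type and 3 of the nup50c mutant. NUP50C is a protein of the nuclear pore, and the sources used here name neither the allele nor the kind of lesion. Both groups grew on 1/2 MS medium with 1% sucrose and received no treatment. The mutant titles carry numbers that were read as replicates and could also name alleles, and the labels do not say whether replicates were grown apart. The p-values therefore rest on the spread among these 6 libraries, part of which may be technical.

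Expansins are secreted proteins without known hydrolytic activity that let cellulose and xyloglucan slip past each other when the wall is acidified. XTH enzymes cut a xyloglucan chain and join the new end to another chain, or, in a few members, to water, so that the chain is shortened. Both families are expressed in growing organs, and single members mark root hairs, lateral roots, leaf veins or the response to touch.

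Totals ran from 33273007 to 39574236 counts per library. The mutated gene *NUP50C* (AT4G11790) was measured at 35.7, 30.4 and 28.99 CPM in the wild-type libraries and 13.6, 10.01 and 10.3 CPM in the nup50c libraries, where CPM are counts scaled to library size with edgeR's TMM factors (log2 fold change -1.49 with an SE of 0.15, adjusted p = 0.00293 by edgeR). The groups did not overlap, and the transcript was reduced, not absent, in the nup50c libraries. Nup50c replicate 3 stood apart on the second principal component of all genes, at -83.6 against -4.9 to 31.5 in the others. Markers of root and of leaf were both present: *CASP1*, of the root endodermis, averaged 29.2 FPKM and *RCA*, Rubisco activase, 2998 FPKM. In whole seedlings, fewer cells of a type and less RNA per cell cannot be told apart.

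No member of either family passed the test between nup50c and wild type. In edgeR's quasi-likelihood fit, with p-values adjusted by Benjamini and Hochberg's method over all 21158 genes tested, 0 of 17 EXPA genes and 0 of 26 XTH genes reached an adjusted p under 0.05, against 2.28% of all genes tested. At an unadjusted p under 0.05 there were 1 higher and 1 lower EXPA gene (11.8% of the family) and 5 higher and 1 lower XTH gene (23.1%), against 16.6% of all genes. DESeq2's Wald test called 0 EXPA genes and 1 XTH gene, *XTH4*, against 6.04% of all genes. Limma on the FPKM called 0 in each family. Its share over all genes is not given here, so that 0 cannot be set against a background. The median log2 fold change was 0.02 over the EXPA genes, 0.03 over the XTH genes and -0.00 over all genes tested. In 13 of 17 EXPA genes and 15 of 26 XTH genes the change was smaller than 0.25 on the log2 scale (76.5% and 57.7%), against 66.8% of all genes. Standard errors of the log2 fold change ran from 0.07 to 0.61 over both families, so that for the noisiest members even a change of 2-fold lay within 2 SE of 0.

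**Figure D1:**
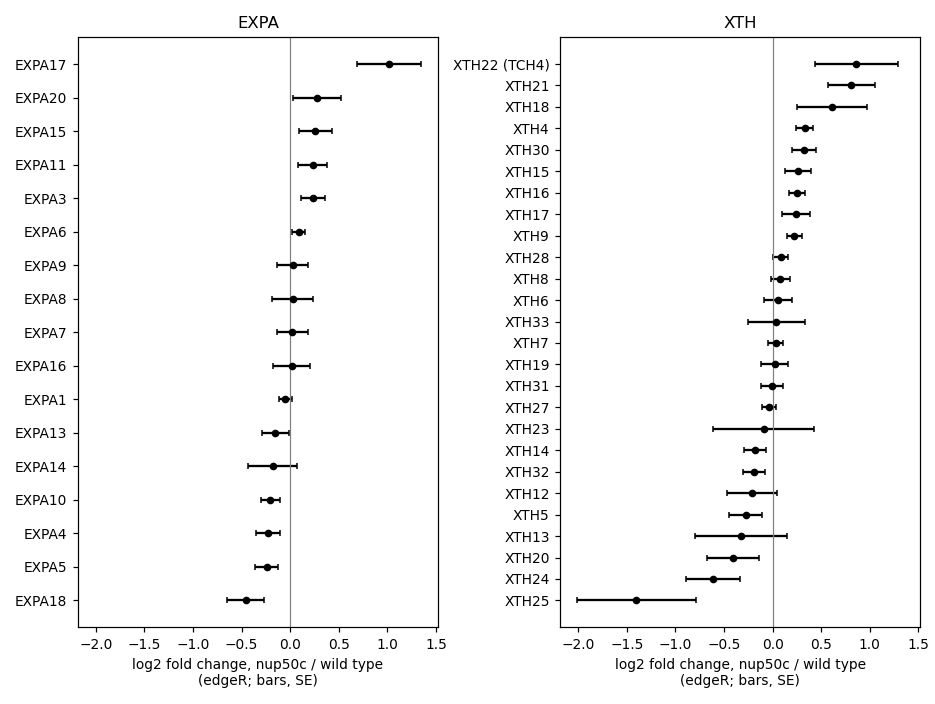
Log2 fold change of each tested member, nup50c over wild type, by edgeR (points) with its standard error (bars, 3 libraries per group), EXPA at the left and XTH at the right, sorted by value. Most points lie within 0.25 of 0, and *EXPA17*, *XTH22*, *XTH21*, *XTH18*, *XTH24* and *XTH25* lie farthest out, several with wide bars.

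The groups did not overlap in 11 of 43 members (25.6%), against 23.4% of all genes tested. Of the EXPA genes 0 were higher and 3 lower without overlap, against 11.7% and 11.6% of all genes, and of the XTH genes 6 were higher and 2 lower (30.8% of the family). The 6 higher ones were *XTH4*, *XTH9*, *XTH16*, *XTH21*, *XTH22* and *XTH30*, and the 5 lower ones *EXPA4*, *EXPA10*, *EXPA18*, *XTH24* and *XTH32*. Over both families together the share was close to that of all genes. Taken apart, EXPA lay below the 23.4% of all genes (17.6%) and XTH above it (30.8%). The 6 higher of 26 XTH genes stand against 11.7% of all genes. These departures were not tested.

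A pair of gene arrays holds 7 of the XTH members side by side, and their sequences are shown because some adjacent genes had very different levels. On chromosome 5, *XTH12*, *XTH13*, *XTH25* and *XTH22* follow each other on the minus strand with gaps of 1097, 686 and 565 bases. On chromosome 4, *XTH24*, *XTH18* and *XTH19* follow each other on the minus strand with gaps of 5161 and 1500 bases. Another pair, *XTH23* and *XTH14*, lies 363 bases apart on the plus strand of chromosome 4. The 27 bases that encode the conserved catalytic stretch of the family (aspartate, glutamate, isoleucine, leucine or valine, aspartate, an aromatic residue or isoleucine, then glutamate, phenylalanine, leucine and glycine) were found by translation in 24 of 26 XTH genes of the RefSeq annotation of TAIR10.1, and the search found no match in *XTH9* and *XTH33*. The stretches of the 7 array genes follow, 5′ to 3′ on the coding strand, with capitals at each base that differs from *XTH22*.
XTH22, chr5:23307839-23307865 (- strand): gacgagatagatttcgagtttttaggg
XTH25, chr5:23305797-23305823 (- strand): gacgaAatCgatttcgagtttCtTggT
XTH13, chr5:23303645-23303671 (- strand): gaTgaAatCgaCttcgagttCttGggT
XTH12, chr5:23301145-23301171 (- strand): gaTgagatTgatttcgagttCttGggT
XTH24, chr4:14820042-14820068 (- strand): gaTgagatTgatttTgagttCttGggT
XTH18, chr4:14826569-14826595 (- strand): gaTgagatTgatttcgagttCttaggA
XTH19, chr4:14829561-14829587 (- strand): gaTgagatTgatttcgagtttttGggg
These genes differed from *XTH22* at 3 to 7 of the 27 bases. Over whole coding sequences the 2 closest XTH pairs were neighbours, *XTH12* with *XTH13* at 89.4% identity and *XTH18* with *XTH19* at 87.6%, against a median of 57.1% over 325 pairs. The closest EXPA pair was *EXPA4* with *EXPA16* at 80.2%. The longest stretch that 2 transcripts shared without a mismatch was 68 nt in XTH (*XTH18* and *XTH19*) and 36 nt in EXPA, shorter than the 150-nt reads named in the series' design text. The sources used here do not state how reads with several matches were counted.

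The 250 bases upstream of each annotated gene start are shown for the chromosome 5 array, 5′ to 3′ toward the gene, because the 4 adjacent genes ran from the fifth most abundant XTH transcript to the least abundant. Capitals mark the CCA1-binding site AAAAATCT, read on both strands.
XTH22, chr5:23308681-23308930 (- strand): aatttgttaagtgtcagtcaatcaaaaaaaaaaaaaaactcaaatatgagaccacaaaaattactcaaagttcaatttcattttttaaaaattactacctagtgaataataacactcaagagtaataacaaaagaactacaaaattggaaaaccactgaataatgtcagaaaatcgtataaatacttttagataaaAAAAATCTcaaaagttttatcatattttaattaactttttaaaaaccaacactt
XTH25, chr5:23306441-23306690 (- strand): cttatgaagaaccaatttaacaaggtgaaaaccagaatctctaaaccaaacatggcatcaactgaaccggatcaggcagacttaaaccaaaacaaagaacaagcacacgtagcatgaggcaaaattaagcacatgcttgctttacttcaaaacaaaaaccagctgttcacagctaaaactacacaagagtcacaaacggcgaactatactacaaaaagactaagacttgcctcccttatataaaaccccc
XTH13, chr5:23304096-23304345 (- strand): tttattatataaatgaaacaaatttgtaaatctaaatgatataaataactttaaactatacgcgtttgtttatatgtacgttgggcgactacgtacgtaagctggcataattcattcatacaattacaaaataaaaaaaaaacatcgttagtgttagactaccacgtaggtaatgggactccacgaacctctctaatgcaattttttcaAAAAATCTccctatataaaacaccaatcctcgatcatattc
XTH12, chr5:23301690-23301939 (- strand): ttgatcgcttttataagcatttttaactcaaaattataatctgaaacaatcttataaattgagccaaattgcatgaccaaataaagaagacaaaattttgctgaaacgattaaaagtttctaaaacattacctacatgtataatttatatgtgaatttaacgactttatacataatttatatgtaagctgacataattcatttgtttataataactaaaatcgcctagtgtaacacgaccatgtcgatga
The window from 250 bases upstream to 50 bases into the gene was searched on both strands for 3 motifs that do not contain one another. The CCA1-binding site was found in *XTH22*, *XTH13* and *EXPA5* (2 of 26 XTH and 1 of 18 EXPA windows) and in 7.88% of 27443 protein-coding genes. The evening element AAAATATCT was found in *XTH12* alone, within the 50 bases not shown, and in 2.82% of all genes. The G-box CACGTG was in 0 of the 44 windows and in 7.68% of all genes. These matches are letters in a window and no record of binding.

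Among the expansins, *EXPA1*, *EXPA6* and *EXPA4* were the most abundant transcripts per length and together made up 48.1% to 52.1% of the summed FPKM of the family in each library. *EXPA1* (AT1G69530, chr1:26141726-26143538), expressed in leaves and guard cells, was at 62.5, 56.2 and 65.1 FPKM in wild type and 60.2, 59.4 and 63.00 FPKM in nup50c. Its TMM-normalized level stood at 96.7, 88.3 and 97.7 CPM in the wild-type libraries and 88.7, 90.8 and 93.7 CPM in the nup50c libraries, with overlapping groups (log2 fold change -0.05 with an SE of 0.07, adjusted p = 0.791 by edgeR). *EXPA6* (AT2G28950, chr2:12431338-12433796) read 80.1, 90.3 and 86.6 CPM in the wild-type libraries and 89.8, 91.1 and 92.6 CPM in the nup50c libraries. The nup50c libraries were close together, replicate 1 just inside the wild-type range and the others just above it (log2 fold change 0.09 with an SE of 0.07, adjusted p = 0.569 by edgeR). For *EXPA4* (AT2G39700, chr2:16543832-16545746) the values were 77.1, 79.5 and 77.8 CPM in the wild-type libraries and 76.2, 70.4 and 53.3 CPM in the nup50c libraries. All nup50c libraries were below all wild-type libraries, replicate 3 well below its own group (log2 fold change -0.23 with an SE of 0.12, adjusted p = 0.394 by edgeR). Without nup50c replicate 3 the log2 fold change of *EXPA4* was -0.09 (adjusted p = 0.589 by edgeR). Summed over the family, FPKM were 315, 299.8 and 322 across the wild-type libraries against 322, 324 and 305 across the nup50c libraries, and the groups overlapped.

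**Figure D2:**
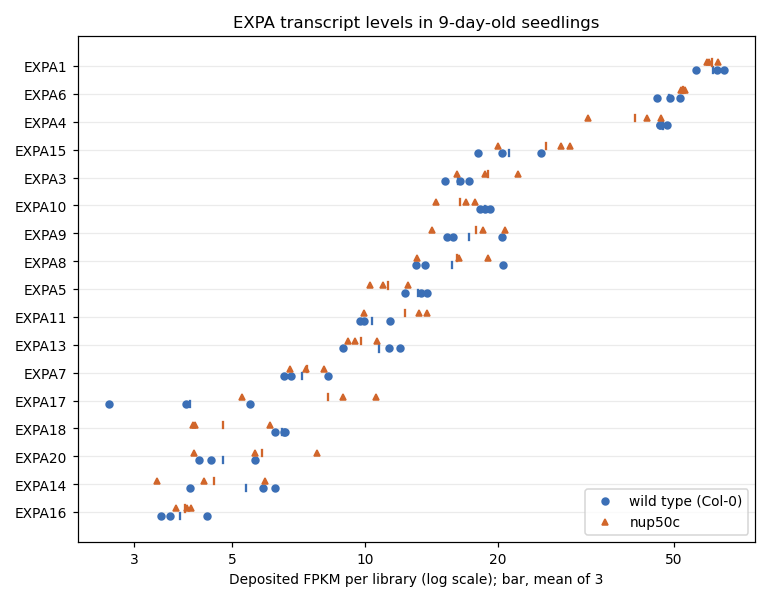
Deposited FPKM of the 17 tested EXPA genes in each library (circles, 3 wild-type libraries; triangles, 3 nup50c libraries; bars, group means) on a log axis, sorted by mean. *EXPA1* stands at the top at 61.1 FPKM and *EXPA16* at the bottom at 3.87 FPKM, and in most rows the 2 groups overlap.

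The expansin with the largest fitted change was *EXPA17* (AT4G01630, chr4:700566-701769), which with *EXPA14* is known from lateral root formation. It was measured at 3.18, 4.78 and 6.73 CPM in the wild-type libraries and 6.30, 12.6 and 10.9 CPM in the nup50c libraries. Nup50c replicates 2 and 3 were above every wild-type library, while nup50c replicate 1 fell below wild-type replicate 3. The change was 2.02-fold and did not pass the test (log2 fold change 1.02 with an SE of 0.33, adjusted p = 0.176 by edgeR), and adjusted p ran from 0.0586 to 0.409 over the 15 alternatives. *EXPA14* was at 9.35, 6.24 and 9.70 CPM in the wild-type libraries and 9.90, 6.87 and 5.52 CPM in the nup50c libraries, with full overlap and a log2 fold change of the other sign (-0.18, adjusted p = 0.801).

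*EXPA18* (AT1G62980, chr1:23331563-23333246) and *EXPA7* (AT1G12560, chr1:4276505-4277969) are the expansins of root hairs, the tubular outgrowths of root epidermal cells. *EXPA18* read 9.07, 9.08 and 8.73 CPM in the wild-type libraries and 5.63, 8.23 and 5.68 CPM in the nup50c libraries. The wild-type libraries were close together and all nup50c libraries were lower, replicate 2 only slightly (log2 fold change -0.46 with an SE of 0.19, adjusted p = 0.267 by edgeR). *EXPA7* stood at 8.39, 8.03 and 10.3 CPM in the wild-type libraries and 8.22, 9.74 and 9.11 CPM in the nup50c libraries and the groups overlapped (log2 fold change 0.02 with an SE of 0.16, adjusted p = 0.971 by edgeR). The root hair markers *COBL9*, *LRX1*, *PRP3*, *RHD2*, *RSL4* and *RHD6* gave 0 calls in 6 genes by edgeR and 1 by DESeq2, against 2.28% and 6.04% of all genes. Log2 fold changes were above 0 in 5 and below in 1, with a median of 0.19. There was 1 unadjusted p under 0.05, against 16.6% of all genes. That p and the DESeq2 call were both at *RHD6*, a regulator of hair formation (log2 fold change 1.36 with an SE of 0.35, adjusted p = 0.0900 by edgeR). The summed level of the 6 markers was 78.97, 59.7 and 74.4 across the wild-type libraries against 69.1, 70.04 and 74.3 across the nup50c libraries (CPM), with overlapping groups. The part of hair number in the *EXPA18* value was not tested. A gene annotated on the other strand overlaps each of *EXPA2*, *EXPA7*, *EXPA18*, *EXPA20* and *XTH15*. Libraries were strand-specific per the labels, but the sources used here leave unsaid whether the counting was, so the reads of such partners may not be told apart.

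*EXPA5* (AT3G29030, chr3:11011262-11013451), an expansin of shoot growth, was at 21.7, 19.3 and 21.3 CPM in the wild-type libraries and 19.5, 15.8 and 17.4 CPM in the nup50c libraries. Nup50c replicate 1 lay just above the lowest wild-type library and the other nup50c libraries below all of them (log2 fold change -0.24 with an SE of 0.12, adjusted p = 0.347 by edgeR). *EXPA10*, of leaves and petioles, was lower in every nup50c library than in any wild-type library, at 29.7, 28.1 and 24.2 against 32.1, 30.6 and 31.8 CPM (log2 fold change -0.20 with an SE of 0.10, adjusted p = 0.356 by edgeR). Without nup50c replicate 3 the log2 fold change of *EXPA10* was -0.12 (adjusted p = 0.573 by edgeR). The remaining EXPA genes, *EXPA3*, *EXPA8*, *EXPA9*, *EXPA11*, *EXPA13*, *EXPA15*, *EXPA16* and *EXPA20*, had overlapping groups, log2 fold changes from -0.15 to 0.28 and adjusted p from 0.398 upward.

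The XTH family held more transcript per length than the expansins, with summed FPKM of 927, 922 and 947 across the wild-type libraries against 962, 1018 and 1143 across the nup50c libraries. All nup50c sums were above all wild-type sums (931.7 ± 13.3 against 1041 ± 92.4 FPKM, SD, n = 3 each), and nup50c replicate 3 was the highest. Summed in CPM the groups nearly met, at 1452.6 in wild-type replicate 3 and 1454.5 in nup50c replicate 1. The median log2 fold change of the family was 0.03. Averaged over the members on the log2 scale, nup50c replicate 1 deviated the lowest of all libraries (-0.11) and nup50c replicate 3 the highest (0.15). *XTH4*, *XTH9* and *XTH7* led the family, with 43.7% to 50.3% of its summed FPKM.

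*XTH4* (AT2G06850, chr2:2763449-2765743), an endotransglucosylase of growing and vascular tissue, had the smallest p of all members. It was measured at 246, 222 and 239.9 CPM in the wild-type libraries and 269.7, 279.7 and 339 CPM in the nup50c libraries. Every nup50c library was above every wild-type library, replicate 3 the most. The difference of 1.26-fold did not pass edgeR's test (log2 fold change 0.33 with an SE of 0.09, adjusted p = 0.107 by edgeR) and passed DESeq2's (adjusted p = 0.00767) and edgeR's over genes above 0 in all libraries (adjusted p = 0.04997). Without nup50c replicate 3 the log2 fold change was 0.22 (edgeR adjusted p = 0.131). *XTH9* (AT4G03210, chr4:1415617-1417444), known from the shoot apex and elongating internodes, stood at 219, 245 and 255 CPM in the wild-type libraries and 295, 285 and 260.0 CPM in the nup50c libraries. The groups lay apart by a small gap between wild-type replicate 3 and nup50c replicate 3 (log2 fold change 0.22 with an SE of 0.07, adjusted p = 0.176 by edgeR). *XTH7* (AT4G37800, chr4:17775370-17777445) was at 176, 146 and 155 CPM in the wild-type libraries and 166, 154 and 167 CPM in the nup50c libraries and the groups overlapped (log2 fold change 0.03 with an SE of 0.08, adjusted p = 0.900 by edgeR).

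*XTH16* and *XTH21* completed the XTH genes with the smallest p. *XTH16* (AT3G23730, chr3:8550037-8551403) read 37.2, 37.4 and 41.1 CPM in the wild-type libraries and 47.7, 46.1 and 43.7 CPM in the nup50c libraries, with all nup50c libraries higher and close together (log2 fold change 0.25 with an SE of 0.08, adjusted p = 0.157 by edgeR). *XTH21* (AT2G18800, chr2:8144881-8146477), which acts in root growth, was at 3.78, 2.48 and 3.50 CPM in the wild-type libraries and 5.52, 6.90 and 4.73 CPM in the nup50c libraries. It was higher in each nup50c library than in any wild-type library, by 1.75-fold in the fit (log2 fold change 0.81 with an SE of 0.25, adjusted p = 0.138 by edgeR), at a low level of 90 to 259 counts. *XTH30*, named after its values were seen, was at 21.8, 21.9 and 23.1 CPM in the wild-type libraries and 25.9, 24.7 and 32.8 CPM in the nup50c libraries, again without overlap (log2 fold change 0.32 with an SE of 0.12, adjusted p = 0.230 by edgeR). Without nup50c replicate 3 the log2 fold change of *XTH30* was 0.19 (adjusted p = 0.413 by edgeR).

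**Figure D3:**
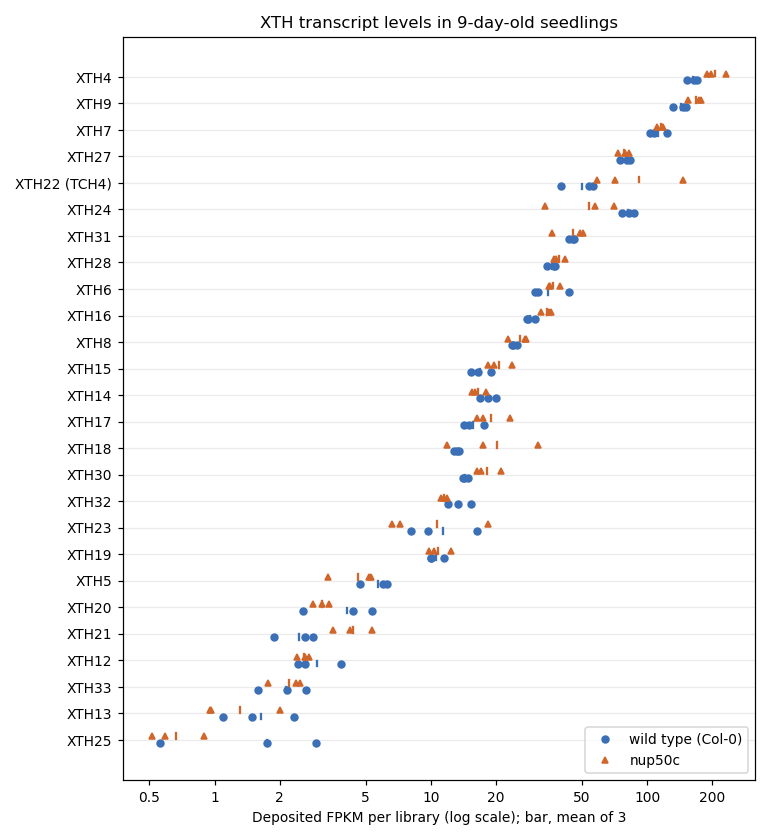
Deposited FPKM of the 26 XTH genes in each library (circles, 3 wild-type libraries; triangles, 3 nup50c libraries; bars, group means) on a log axis, sorted by mean. *XTH4* leads at 183.8 FPKM, *XTH25* stands at the bottom at 1.21 FPKM, and the row of *XTH22* is stretched by a nup50c library at 145.9 FPKM.

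*TCH4* (*XTH22*, AT5G57560, chr5:23307006-23308680), an XTH gene induced by touch, was spread more widely within nup50c than between the groups. It was measured at 70.2, 98.5 and 95.3 CPM in the wild-type libraries and 101, 121 and 257 CPM in the nup50c libraries. The lowest nup50c library was only just above the highest wild-type library, and nup50c replicate 3 was more than 2-fold above the other nup50c libraries. The log2 fold change of 0.86 (SE 0.42, edgeR adjusted p = 0.418) fell to 0.34 without that library (adjusted p = 0.370). The same library was high in other touch and handling genes: the mean deviation of 9 of them (*TCH2*, *TCH3*, *CML23*, *CML38*, *ZAT10*, *ZAT12*, *WRKY33*, *WRKY40*, *ERF104*) from the average of all libraries, on the log2 scale, was -0.63, -0.02 and -0.32 across the wild-type libraries against -0.48, 0.18 and 1.27 across the nup50c libraries. All 9 had log2 fold changes above 0. By edgeR 0 were called and by DESeq2 2, against 2.28% and 6.04% of all genes. Unadjusted, 3 had p under 0.05 by edgeR, against 16.6% of all genes. The smallest was at *ERF104*, an ethylene response factor gene (log2 fold change 1.04 with an SE of 0.22, adjusted p = 0.0816 by edgeR). Without nup50c replicate 3, 6 of the 9 were above 0 and 1 was called higher by edgeR. Over all 21404 genes tested in that fit, 10642 were above 0, 172 were called higher and 266 lower. The part of handling in the *TCH4* result was not tested.

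The neighbours of *TCH4* on chromosome 5 were far less abundant, at 2.77 (*XTH12*), 1.47 (*XTH13*) and 1.21 (*XTH25*) FPKM on average against 70.9 FPKM. *XTH25* (AT5G57550, chr5:23304782-23306440) had 136, 83 and 30 counts across the wild-type libraries against 40, 29 and 22 across the nup50c libraries. Its wild-type libraries spread widely, wild-type replicate 3 lay within the nup50c range, and the 2.64-fold lower level in nup50c did not pass (log2 fold change -1.40 with an SE of 0.61, adjusted p = 0.294 by edgeR). Without wild-type replicate 1 the log2 fold change of *XTH25* was -0.81 (adjusted p = 0.737 by edgeR). *XTH12* (AT5G57530, chr5:23300321-23301689), a root gene, had 117, 111 and 193 counts across the wild-type libraries against 104, 127 and 109 across the nup50c libraries, and its groups overlapped (log2 fold change -0.21 with an SE of 0.26, adjusted p = 0.760 by edgeR). *XTH13* (AT5G57540, chr5:23302787-23304095), also of roots, had 64, 103 and 54 counts across the wild-type libraries against 40, 44 and 81 across the nup50c libraries. Its highest values were in wild-type replicate 2 and nup50c replicate 3 (log2 fold change -0.32 with an SE of 0.47, adjusted p = 0.811 by edgeR), and without the latter its log2 fold change was -0.78 (adjusted p = 0.494). The SEs of these 3 genes ran from 0.26 to 0.61. *XTH21*, at 3.41 FPKM on average, had an SE of 0.25, close to that of *XTH12*, and *XTH13* and *XTH25* were less abundant than both. The widest SE belonged to *XTH25*, whose wild-type libraries were the most unlike each other.

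**Figure D4:**
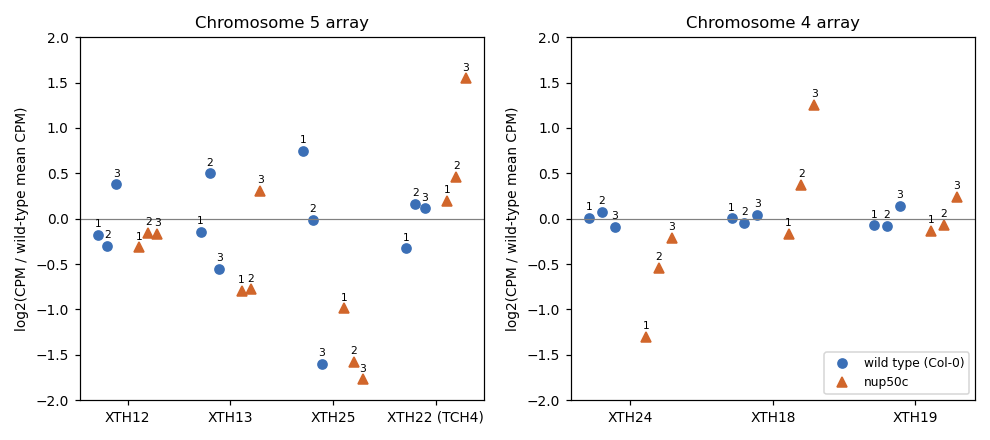
CPM of the genes of both XTH arrays in each library, as log2 ratio to the gene's wild-type mean (circles, wild type; triangles, nup50c; the number beside each point is the replicate). Nup50c replicate 3 is the highest point of *XTH22* and *XTH18*, nup50c replicate 1 is the lowest of *XTH24*, and *XTH25* spreads widely within wild type.

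In the chromosome 4 array, the neighbours *XTH24* and *XTH18* had log2 fold changes of opposite sign. The groups overlapped at *XTH18* and *XTH19*, and none of the 3 genes passed the test. *XTH24* and *XTH18* were named after their values were seen. *XTH24*, first described as a gene of meristems, was at 110.2, 115 and 103 CPM in the wild-type libraries and 44.4, 75.2 and 94.5 CPM in the nup50c libraries. All nup50c libraries were below all wild-type libraries, and they ranged from far below the wild-type level to just below it (log2 fold change -0.62 with an SE of 0.28, adjusted p = 0.367 by edgeR). *XTH18*, a root gene, read 18.4, 17.8 and 18.9 CPM in the wild-type libraries and 16.3, 23.8 and 43.9 CPM in the nup50c libraries. Nup50c replicate 3 held more than 2 times the level of any wild-type library, while nup50c replicate 1 was the lowest of all (log2 fold change 0.61 with an SE of 0.36, adjusted p = 0.489 by edgeR). Without nup50c replicate 3 the log2 fold change of *XTH18* was 0.13 and that of *XTH24* -0.87 (adjusted p = 0.778 and 0.175). Without nup50c replicate 1, the lowest library, that of *XTH24* was -0.37 (adjusted p = 0.158 by edgeR). *XTH19* stood at 14.8, 14.7 and 17.2 CPM in the wild-type libraries and 14.2, 14.8 and 18.4 CPM in the nup50c libraries, with full overlap (log2 fold change 0.02 with an SE of 0.14, adjusted p = 0.968 by edgeR). The sequence-related root genes *XTH17* and *XTH20* also overlapped between groups (log2 fold change 0.24 and -0.40, adjusted p = 0.455 and 0.517).

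*XTH23*, the closest relative of *TCH4* in coding sequence at 79.9% identity, had overlapping groups. It was at 14.6, 24.6 and 12.4 CPM in the wild-type libraries and 10.7, 9.80 and 27.9 CPM in the nup50c libraries. Wild-type replicate 2 and nup50c replicate 3 were well above the other libraries, so each group held 1 high library (log2 fold change -0.09 with an SE of 0.52, adjusted p = 0.963 by edgeR), and without nup50c replicate 3 the log2 fold change was -0.74 (adjusted p = 0.269). The same pair of libraries was high in *XTH13* and in the touch gene *TCH3*, at 358, 545 and 374 CPM in the wild-type libraries and 185, 329 and 778 CPM in the nup50c libraries. *XTH14*, the neighbour of *XTH23* and a gene of root hairs, overlapped between groups (log2 fold change -0.18 with an SE of 0.11, adjusted p = 0.490 by edgeR).

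*XTH31* and *XTH32* belong to the small branch of the family that is known or predicted to hydrolyse xyloglucan. *XTH31* was at 70.3, 66.5 and 70.2 CPM in the wild-type libraries and 74.4, 75.8 and 56.1 CPM in the nup50c libraries, with nup50c replicate 3 the lowest of all libraries and the other nup50c replicates the highest (log2 fold change -0.00 with an SE of 0.11, adjusted p = 0.989 by edgeR). *XTH32* was at 21.7, 17.9 and 18.9 CPM in the wild-type libraries and 16.5, 17.4 and 17.4 CPM in the nup50c libraries, each nup50c library a little below each wild-type library (log2 fold change -0.19 with an SE of 0.11, adjusted p = 0.457 by edgeR). Without wild-type replicate 1, the highest library, its log2 fold change was -0.11 (adjusted p = 0.799 by edgeR). *XTH27*, of leaf veins, and its relative *XTH28* had log2 fold changes of -0.04 and 0.08 with SEs of 0.07, among the most precise of the family. *XTH5*, *XTH6*, *XTH8*, *XTH15* and *XTH33* had overlapping groups and log2 fold changes from -0.28 to 0.26, with adjusted p from 0.362 upward.

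Genes of the same wall outside both families included some that passed the test. The alpha-xylosidase gene *XYL1* and the beta-galactosidase gene *BGAL10*, whose products trim side chains from xyloglucan, rose, so that 2 of 3 trimming genes were higher and 0 lower, against 1.12% and 1.17% of all genes tested. *XYL1* (AT1G68560, chr1:25734060-25738134) was at 198, 205 and 216 CPM in the wild-type libraries and 268, 287 and 259.8 CPM in the nup50c libraries, with all nup50c libraries higher (log2 fold change 0.40 with an SE of 0.06, adjusted p = 0.0169 by edgeR). *BGAL10* (AT5G63810, chr5:25537074-25541529) read 42.4, 53.4 and 44.1 CPM in the wild-type libraries and 64.4, 66.4 and 70.5 CPM in the nup50c libraries, also without overlap (log2 fold change 0.53 with an SE of 0.10, adjusted p = 0.0293 by edgeR). The count of 2 was 0 without wild-type replicate 1 or nup50c replicate 2, and 1 without any other library.

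Of 9 genes of cellulose synthesis in the primary wall, 1 was higher and 0 lower by edgeR, against 1.12% and 1.17% of all genes tested. The higher one was *CESA1*, a catalytic subunit, which rose from 382 ± 16.2 to 468 ± 18.2 CPM (mean ± SD of 3 libraries, log2 fold change 0.29 with an SE of 0.06, adjusted p = 0.0391 by edgeR). All 9 had log2 fold changes above 0, with a median of 0.26. In 8 the nup50c libraries were higher without overlap, against 11.7% of all genes, and DESeq2 called 6, against 6.04% of all genes. *CESA1* lost its call without each library in turn (adjusted p from 0.0520 to 0.172). Of 11 xyloglucan synthesis genes 0 passed, with 8 above 0, a median of 0.15 and the smallest adjusted p at *XXT5*, a xylosyltransferase gene (log2 fold change 0.36, adjusted p = 0.108). Of 6 tested beta-expansin and expansin-like genes 0 passed, with 4 above 0, a median of 0.17 and the smallest adjusted p at *EXLB1* (log2 fold change -0.58, adjusted p = 0.176). Unadjusted, 5 of the 11 xyloglucan synthesis genes and 3 of the 6 genes of the expansin lists had p under 0.05 by edgeR, against 16.6% of all genes. In the same lists DESeq2 called 2 (*XXT1* and *XXT5*) and 1 (*EXLA1*), against 6.04% of all genes. The summed level of the xyloglucan synthesis genes was 435, 432 and 434 across the wild-type libraries against 481, 482 and 591 across the nup50c libraries (CPM), again highest in nup50c replicate 3. Of the XTH loci outside the 26, *XTH10*, *XTH11* and *XTH26* were tested, with a 0 in at least 1 library each and 0 calls, and 4 were listed at 0 counts in every library. Of 8 further EXPA loci 0 were tested.

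**Figure D5:**
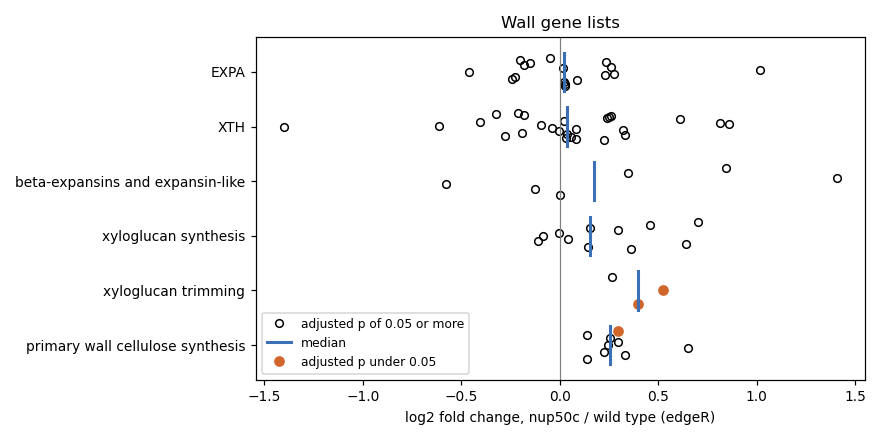
Log2 fold change of each tested gene (points), nup50c over wild type by edgeR, for the EXPA and XTH genes and 4 other lists of wall genes; filled points passed the adjusted test and blue bars are medians. Points of EXPA and XTH lie on both sides of 0, and all points of the trimming and cellulose lists lie above 0.

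Markers of other tissues are given beside these values. Over all genes tested, edgeR called 2.28% and DESeq2 6.04%, and 16.6% had an unadjusted p under 0.05 by edgeR. Of 7 root markers 0 were called by edgeR and 1 by DESeq2, with 2 above 0 and 1 unadjusted p under 0.05. Their summed CPM, mostly from the root beta-glucosidase gene *PYK10* (log2 fold change 0.31 with an SE of 0.09, adjusted p = 0.118 by edgeR), was 2355, 2127 and 2310.3 across the wild-type libraries against 2415, 2979 and 3002 across the nup50c libraries, and all nup50c sums were above all wild-type sums. Of 4 leaf mesophyll markers *GLDP1*, a glycine decarboxylase gene, rose (log2 fold change 0.48 with an SE of 0.07, adjusted p = 0.00926 by edgeR) and 2 were above 0, with 2 unadjusted p-values under 0.05 and 2 calls by DESeq2, *GLDP1* and *CA1*, a carbonic anhydrase gene (log2 fold change 0.43 and adjusted p = 0.0520 by edgeR, adjusted p = 1.7e-05 by DESeq2). *GLDP1* lost its call without wild-type replicate 1 (adjusted p = 0.0629 by edgeR). Of 4 guard cell markers 0 were called by edgeR and 1 by DESeq2, 3 were below 0, and the smallest p was at *GC1*, a guard cell reporter gene (log2 fold change -0.29 with an SE of 0.07, adjusted p = 0.0822 by edgeR). The part of tissue proportions in the wall gene values was not tested.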

How the data were processed

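Strand-specific mRNA libraries were made from about 50 mg of seedlings, per the labels' protocols. The authors deposited whole-number counts per gene and, in another table, FPKM. HISAT2 2.0.4, HTSeq 0.6.1p1 and the build TAIR10 are named in the submitters' processing notes without role or order, and the sources used here do not state which program wrote which table. Of 185190 count values, 57420 are 0 and 40 are 1, so a 0 may be a failed estimate; the 43 members have none.

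The counts went into edgeR 4.0.16 in R 4.3.3 (filterByExpr with 10 counts and 15 in total, TMM, robust quasi-likelihood F test, no covariate, Benjamini-Hochberg adjustment over 21158 genes, threshold 0.05); SEs were computed from the log2 fold change and its F. Alternatives were DESeq2 1.42.0, limma 3.58.1 on log2(FPKM + 1) or log2(FPKM + 0.1) with 1 FPKM or more in 3 libraries, other filters and scaling, a replicate block, and each library left out. The 2 FPKM rows of a repeated locus were dropped. The fit was tested on simulated counts: false calls stayed near the nominal share with trended dispersions and exceeded it in some sets with gene-wise ones. No pair of libraries within a group was as alike as counting noise allows (chi-square 14.5 to 30.0 per gene).

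The members and lists were chosen with earlier results of these data known. Given in full are the 3 members of each family with the smallest p, the 3 with the highest mean FPKM, *TCH4* and its array; other members with values in every library, and *TCH3*, were picked after their values were seen. Positions and sequences come from RefSeq's TAIR10.1, matched by locus; motif windows were read from that genome.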

Additional observations from a re-analysis of the deposited data

How the results depend on the processing

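Under 15 alternatives 0 EXPA genes were called, and 0 XTH genes except *XTH4*, which made the count 1 by DESeq2's test and in the fit restricted to genes with no 0 in any library. The sign of the fitted change was the same in every alternative run for 13 of 17 EXPA and 17 of 26 XTH genes; *XTH25*, one of the latter, had 13 alternatives because it failed the FPKM filter. With single libraries left out, the median log2 fold change ran from -0.052 to 0.098 over the EXPA genes and from -0.0042 to 0.097 over the XTH genes. Over all genes, 236 higher and 247 lower calls became 660 and 617 by DESeq2, 394 and 378 where every library had 10 or more counts, 398 and 380 where no library was at 0, and 43 to 172 and 65 to 266 without single libraries. The trimming count of 2 became 0 to 1 and the cellulose count of 1 became 0 to 1 without single libraries. Where the cellulose count stayed at 1, the gene was *CSI1* (smallest adjusted p = 0.0372 by edgeR) and not *CESA1*. The cellulose count was 6 by DESeq2, 2 where every library had 10 or more counts and 3 where no library was at 0. Both lists were chosen for this after seeing the data. The cause of these shifts was not tested.

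With the title number as a replicate block, 12 genes were higher and 19 lower, and 0 members, 0 trimming and 0 cellulose genes were called, and *GLDP1* was not (adjusted p = 0.0594 by edgeR). Deviations of same-numbered libraries correlated at -0.03, -0.12 and -0.10, and 0 libraries correlated best with their own number. These values show no pairing by number. With 3 libraries per group they cannot tell whether same-numbered libraries were grown or prepared together. Leaving out 1 library leaves 2 in its group.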
